A study of Mus musculus with 8 samples.

Results

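Sorted mouse embryonic fibroblasts, connective tissue cells grown from embryos, whose lentiviral vector carried mCherry were compared with those whose vector carried GFP, with the vector held in balance. All 8 libraries of the series entered the comparison. The 4 mCherry libraries were 2 YAP libraries and 2 empty-vector (EV) libraries, and so were the 4 GFP libraries, which gave 4 arms of 2 libraries. The libraries were placed by the reporter named in their labels. A gene that held an exact 0 in any library was set apart, because such a 0 can be a failed estimate: 625 of the 13276 tested genes were set apart and 12651 were not.

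The mCherry arms carried wild-type YAP fused to mCherry, or an empty vector that encodes mCherry. The GFP arms carried wild-type YAP fused to GFP, or an empty vector that encodes GFP. All cells received lentivirus, grew with 1 ug/mL doxycycline and were sorted on the vector's own reporter. In the YAP arms the reporter is a tag on the protein, whereas in the EV arms it has no such partner. Polyadenylated RNA was sequenced from a stranded library kit after a Trizol extraction. Whether an arm's 2 libraries stem from different cultures is not stated, and p-values thus reflect the spread among these libraries, which may be technical. The reporter, the virus that carries it and the sort gate change together between the colours and cannot be told apart. The deposited column names number the GFP libraries before the mCherry libraries in each vector. The EV mCherry columns also carry another prefix (FP) than the EV GFP columns (EV). Whether the colours were cultured, prepared, sequenced or quantified apart is not stated, and such a batch could not be told apart from the reporter either.

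GFP comes from a jellyfish and mCherry was engineered from a coral protein. Both are used to mark transduced cells, and neither has a mammalian counterpart. A marker is normally treated as neutral, so libraries of both colours serve as replicates of a vector. YAP is a co-activator that the Hippo kinases restrain and that drives genes such as Cyr61 and Ctgf through TEAD factors. Fibroblasts in culture also produce interferon-stimulated genes, which answer viral nucleic acid, and immediate early genes, which answer serum and growth factors within minutes.

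No row of the table is named for a reporter or a vector, so the colour labels could not be checked against a transcript of their own. Yap1 did not check the vector labels: it had 82.9, 84.9, 80.0 and 80.7 FPKM in the libraries labelled YAP and 93.2, 92.2, 88.5 and 88.4 FPKM in those labelled EV. EV and YAP below are therefore labels. Fibroblast markers were high throughout, with summed FPKM of 11800 to 13200 in mCherry libraries and 11600 to 12400 in GFP libraries over 19 markers. Xist spanned 19.3 to 23 FPKM in mCherry libraries and 20.7 to 24.0 FPKM in GFP libraries, and the Y-linked Kdm5d spanned 5.74 to 6.83 FPKM in mCherry libraries and 5.77 to 7.91 FPKM in GFP libraries. FPKM, the fragments mapped to a gene scaled by its length and by the library's total, summed to between 733152 and 1018400 per library. Of that sum, Gm3788 alone took 13.5% to 23.3% in mCherry libraries and 22.5% to 29.1% in GFP libraries. The absolute depth is unknown. Over the genes with no exact 0, the median absolute log2 difference between the means of the mCherry and GFP arms was 0.18 within YAP and 0.162 within EV. Between the 2 libraries of an arm it was 0.166 to 0.187. An arm mean averages 2 libraries and so carries less error than a single library, and the values are given side by side only.

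Few genes passed the test for the reporter, and no gene list described below held more than 1 of them. With limma on log2(FPKM + 0.5), a term for the vector and Benjamini-Hochberg adjustment, 12 genes (0.0904% of those tested) were called at an adjusted p under 0.05, 8 (0.0603%) higher and 4 (0.0301%) lower in mCherry libraries. Of these, 5 genes (0.0377%) held no exact 0. Gramd1a, Clip3 and Echs1 (0.0226%) were higher, and Snrpd3 and Rtp4 (0.0151%) were lower. At an unadjusted p under 0.05, 794 genes (5.98%) were higher and 610 (4.59%) were lower. All 4 mCherry libraries lay above all 4 GFP libraries for 2.95% of the tested genes and below them for 2.15%. The median difference over all tested genes was 0.0204 on the log2 scale. Below, values within a reporter are listed for YAP replicates 1 and 2 and then EV replicates 1 and 2, and differences are mCherry minus GFP on the log2(FPKM + 0.5) scale, which understates the change of low genes.

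Gramd1a, which encodes a sterol transfer protein at contacts between the endoplasmic reticulum and the plasma membrane, had 61.2, 57.3, 56.2 and 58.9 FPKM in mCherry libraries, against 33.8, 36.7, 34.5 and 34.2 FPKM in GFP libraries. Every mCherry library lay above every GFP library, and replicates stood close together in all 4 arms. The difference was 0.74 (SE 0.0604, limma adjusted p = 0.00739), and it was 0.74 within YAP and 0.74 within EV. The gene (ENSMUSG00000001248) lies on the minus strand at chr7:31130127-31155896 in mm10.

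Clip3, a linker of membranes to microtubules at the Golgi, had 74.8, 108, 115 and 85.2 FPKM in mCherry libraries, against 32.3, 30.1, 35.8 and 35.3 FPKM in GFP libraries. The groups did not overlap, and the mCherry libraries spread more widely than the GFP libraries. The difference was 1.49 (SE 0.138, limma adjusted p = 0.0158). Clip3 (ENSMUSG00000013921) lies on the plus strand at chr7:30291728-30308367.

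Echs1, a mitochondrial enoyl-CoA hydratase of fatty acid and valine breakdown, had 105, 119, 106 and 127 FPKM in mCherry libraries, against 56.7, 60.8, 48.2 and 44.6 FPKM in GFP libraries. Again no libraries overlapped. The difference was 1.12 (SE 0.11, limma adjusted p = 0.0197), with 0.92 within YAP and 1.32 within EV. Echs1 (ENSMUSG00000025465) lies on the minus strand at chr7:140105710-140116476.

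Snrpd3, a core Sm protein of the spliceosome, went the other way. It had 9.95, 14.2, 11.2 and 12.2 FPKM in mCherry libraries, against 27.5, 37.5, 41.0 and 43.9 FPKM in GFP libraries, without overlap. The difference was -1.61 (SE 0.159, limma adjusted p = 0.0197). Snrpd3 (ENSMUSG00000020180) lies on the plus strand at chr10:75517551-75537381.

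Rtp4, an interferon-stimulated chaperone of membrane receptors, had 13.7, 12.3, 22.7 and 23.1 FPKM in mCherry libraries, against 21.4, 23.4, 40.0 and 35.4 FPKM in GFP libraries. Within each vector both mCherry libraries lay below both GFP libraries, but EV mCherry and YAP GFP libraries overlapped. The difference was -0.73 (SE 0.0752, limma adjusted p = 0.0232), with -0.76 within YAP and -0.70 within EV. Rtp4 (ENSMUSG00000033355) lies on the plus strand at chr16:23520291-23614222.

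Among these 5, only Gramd1a kept an adjusted p under 0.05 without each library in turn (0.0279 to 0.0497). Clip3 and Echs1 kept it in 3 of 8 such fits, Snrpd3 in 2 of 8 and Rtp4 in 0 of 8, with highest values of 0.0826, 0.0918, 0.106 and 0.106. For 4 of the 5 genes, all but Clip3, the locus in the authors' table reached over 1000 bases beyond the annotated gene, against 26.2% of the 12625 genes with no exact 0 and both loci. For Gramd1a, the authors' deposited table gives 61.1 FPKM for the pooled YAP libraries and 65.7 FPKM for the pooled EV libraries. The EV value lies above every EV library, and the YAP value is near the YAP mCherry libraries. In the same order it gives Echs1 101 and 82.2 FPKM, Snrpd3 30.2 and 35.8 FPKM, and Rtp4 18.0 and 30.0 FPKM. These lie within the range of their vector's libraries. For Clip3 it gives 127 and 140 FPKM, above every library listed here. Such pooled values lay above every library of the same vector, in both vectors, for 34.5% of genes with no exact 0. What these gene models contributed to the differences was not tested.

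**Figure D1:**
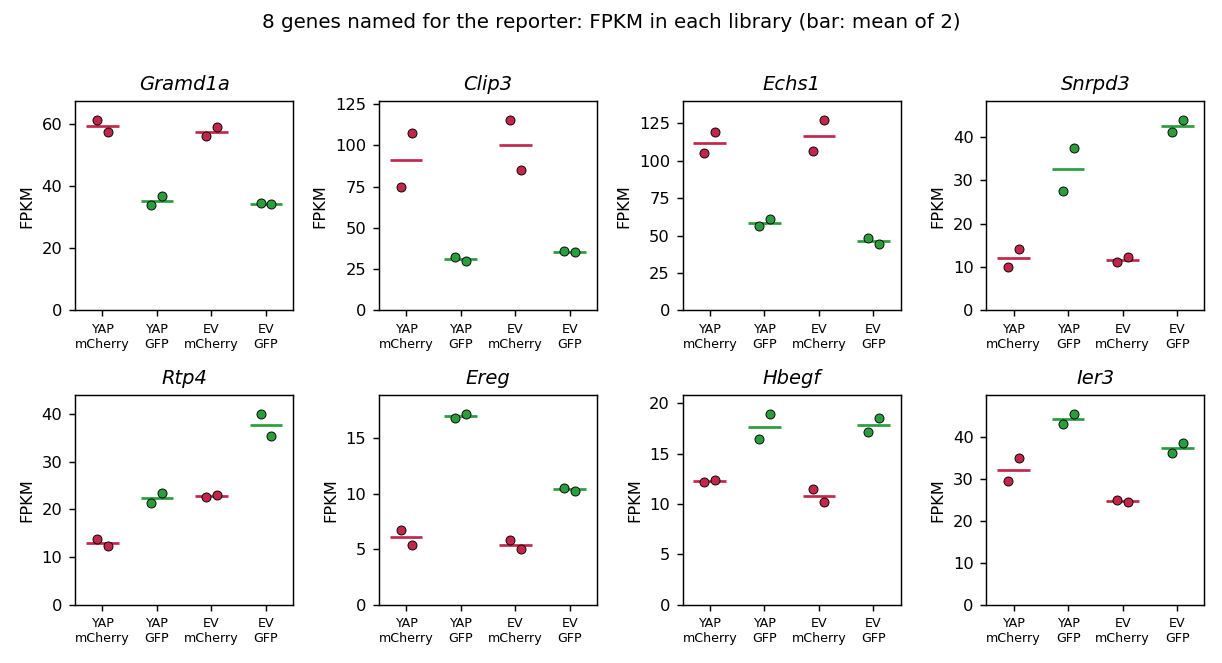
Each panel plots FPKM (linear axis from 0) of 1 gene by arm, with points for the 2 libraries and a bar for their mean; the 5 called genes with no exact 0 come first, then Ereg, Hbegf and Ier3. For Gramd1a the mCherry libraries sit at 56.2 to 61.2 FPKM and the GFP libraries at 33.8 to 36.7 FPKM, and for Rtp4 the mCherry libraries lie below the GFP libraries within each vector but not across vectors.

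A further 7 calls rested on exact zeros. Atp5o, which encodes a stalk subunit of ATP synthase, had 167, 154, 169 and 144 FPKM in mCherry libraries and is listed at 0 in all 4 GFP libraries. Jmjd6, an oxygenase of nuclear proteins, had 40.2, 31.6, 41.8 and 43.4 FPKM in mCherry libraries and 0 in the GFP libraries. Gadl1, Uspl1 and the gene model Gm28035 had the same pattern, while Prickle3 and the lincRNA Gm26735 are listed at 0 in all 4 mCherry libraries and not in the GFP libraries. Prickle3, a planar polarity gene, had 4.73, 3.56, 4.46 and 5.73 FPKM in GFP libraries.

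The authors' deposited table does not list these 7 genes at 0. It gives Atp5o 189 FPKM for the pooled YAP libraries and 168 FPKM for the pooled EV libraries, and Jmjd6 27.9 and 32.0 FPKM. No fold is given for any of them. For 6 of the 7 the authors' locus reached over 1000 bases beyond the gene, a share of 85.7%, against 72.1% of all genes with an exact 0. Zeros followed other pairs of arms too: 3 tested genes were at 0 in exactly both YAP arms, 3 in the YAP GFP and EV mCherry arms, 0 in both EV arms and 0 in the YAP mCherry and EV GFP arms. A 0 in 1 library alone was found in 164 genes. Neighbours within the same loci had both kinds of value. Phyhd1, inside the locus of Gm28035, is listed at 0 in all 4 mCherry libraries and in YAP GFP replicate 2, against 35.1 to 43.1 FPKM in the other 3 GFP libraries. Son, a splicing cofactor inside the Atp5o locus, is not at 0 and had 62.4, 59.3, 61.2 and 70.3 FPKM in mCherry libraries and 78.3, 78.1, 82.0 and 80.1 FPKM in GFP libraries.

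Transcripts of macrophages stood higher in mCherry libraries. Of 20 tested macrophage and leukocyte markers, 15 had an unadjusted p under 0.05, all higher in mCherry, against 5.98% of all tested genes. None passed the adjusted threshold. The median difference was 0.60, against 0.0204 over all genes, with 0.71 within YAP and 0.52 within EV. An estimate above 0 was found for 19 of the 20, all but Pf4, which held an exact 0. In bulk RNA, more cells of a type and more RNA per cell cannot be told apart.

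Lyz2, the lysozyme of macrophages, had 185, 199, 163 and 194 FPKM in mCherry libraries, against 73.5, 90.6, 137 and 140 FPKM in GFP libraries. The groups did not overlap, and the difference of 0.79 (SE 0.185) had a limma adjusted p of 0.28. C1qa, a chain of the complement initiator C1q, had 27.3, 32.1, 53.4 and 62.6 FPKM in mCherry libraries, against 17.0, 22.2, 34.4 and 43.2 FPKM in GFP libraries. Both mCherry libraries lay above both GFP libraries of the same vector, with a difference of 0.59 (SE 0.122, limma adjusted p = 0.245). The YAP minus EV value from the same libraries was -0.96. C1qa lies on chr4:136895917-136898803, minus strand.

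Receptors of macrophages were also higher in mCherry libraries by estimate. Cd14, the lipopolysaccharide co-receptor, had 11.8, 12.9, 13.1 and 14.1 FPKM in mCherry libraries and 4.74, 7.44, 9.33 and 8.28 FPKM in GFP libraries. Csf1r, the receptor that macrophages need to survive, had 8.22, 7.52, 7.52 and 9.81 FPKM in mCherry libraries and 3.89, 6.18, 4.43 and 5.39 FPKM in GFP libraries. Adgre1, which encodes the F4/80 antigen, had 2.74, 2.66, 3.16 and 4.22 FPKM in mCherry libraries and 1.12, 1.31, 2.18 and 2.46 FPKM in GFP libraries. None of the 3 receptors overlapped between reporters, as for 7 of the 20 markers, against 2.95% of all tested genes, and their limma adjusted p-values were 0.242, 0.28 and 0.258.

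Summed over all 28 listed markers, tested or not, mCherry libraries held 409, 434, 457 and 492 FPKM and GFP libraries held 201, 246, 346 and 371 FPKM. The sums did not overlap. Of these 28, the 8 that were not tested did not reach a mean of 1 FPKM. Itgam, under the identifier kept here (ENSMUSG00000108596), and H2-Aa are listed at 0 in every library and Cd163 in all but 1. Rpl12 and Ndufs1, which every cell uses, are also listed at 0 throughout, so these zeros can be failed estimates. Ptprc, the CD45 antigen of all leukocytes, macrophages included, was low and overlapped, with 0.870, 1.37, 0.509 and 0.591 FPKM in mCherry libraries and 0.930, 0.453, 1.30 and 0.448 FPKM in GFP libraries. The number of markers at an unadjusted p under 0.05 was smaller in some fits without 1 library. No marker at that threshold was lower in mCherry in these fits. The count was 11 without a vector term, where the difference between the vectors adds to the error.

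**Figure D2:**
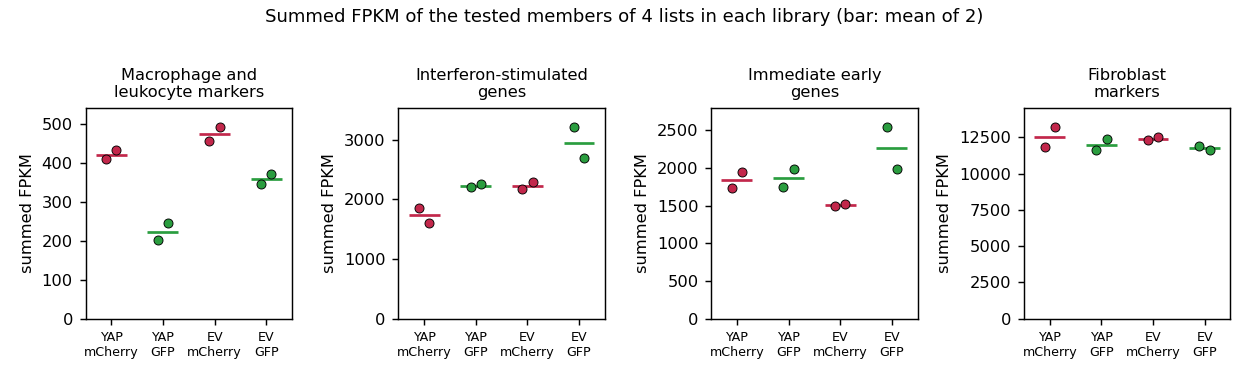
Points give the summed FPKM (linear axis from 0) of the members of 4 lists in each library, by arm, with a bar for the mean of the 2 libraries. The sums include listed members below the filter on level, although the heading says tested members. Macrophage markers sum to 409 to 492 FPKM in mCherry libraries and 201 to 371 FPKM in GFP libraries, while fibroblast markers overlap between the reporters.

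Interferon-stimulated genes stood lower in mCherry libraries. Of 47 tested, 14 had an unadjusted p under 0.05, all lower, against 4.59% of all tested genes. Rtp4 alone passed the adjusted threshold. The median difference was -0.31, with -0.28 within YAP and -0.32 within EV, and 40 of the 47 had estimates below 0. The YAP value rests largely on 1 library. Centred by gene over the 8 libraries, the list's median log2 level was -0.09 in YAP mCherry replicate 1 and -0.71 in YAP mCherry replicate 2, against -0.11 and -0.08 in YAP GFP libraries. It was 0.11 and 0.06 in EV mCherry libraries, against 0.45 and 0.37 in EV GFP libraries. Their promoters are shown here because the best known control element of these genes, the interferon-stimulated response element, can be read in them. Capitals mark its core, spelled TTTCNNTTTC or GAAANNGAAA on the strand shown. RefSeq promoter windows (GRCm38.p6, 250 bases before to 50 after the start) were matched for 35 of the 47 genes. They hold this core in 48.6% of the 35, against 3.99% of the 27025 genes with a window and 3.78% of the tested genes with one. The list was made of genes that answer interferon, so a high share was likely beforehand and does not bear on the reporter difference.
Isg15 promoter, chr4:156200769-156201068, minus strand: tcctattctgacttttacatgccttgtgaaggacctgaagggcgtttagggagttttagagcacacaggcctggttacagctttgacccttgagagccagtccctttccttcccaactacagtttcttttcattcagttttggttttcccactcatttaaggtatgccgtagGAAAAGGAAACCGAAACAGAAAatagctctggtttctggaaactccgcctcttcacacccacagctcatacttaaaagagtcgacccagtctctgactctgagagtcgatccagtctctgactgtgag
Bst2 promoter, chr8:71537423-71537722, minus strand: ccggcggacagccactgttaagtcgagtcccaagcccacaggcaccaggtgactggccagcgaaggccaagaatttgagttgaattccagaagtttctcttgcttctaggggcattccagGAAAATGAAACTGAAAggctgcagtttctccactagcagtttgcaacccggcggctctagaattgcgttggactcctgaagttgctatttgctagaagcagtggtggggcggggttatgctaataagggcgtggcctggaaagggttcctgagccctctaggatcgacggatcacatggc

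Isg15, a ubiquitin-like modifier, had 147, 99.6, 204 and 207 FPKM in mCherry libraries, against 206, 211, 371 and 308 FPKM in GFP libraries. It was lower in mCherry within each vector, although the highest EV mCherry library lay just above the lower YAP GFP library. The difference was -0.75 (SE 0.125, limma adjusted p = 0.186). In its window 3 overlapping copies of the core run together ahead of the start.

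Bst2, the tetherin that holds budding virus on the cell surface, had 399, 325, 422 and 537 FPKM in mCherry libraries, against 538, 582, 878 and 664 FPKM in GFP libraries. The groups touched but did not overlap, with a difference of -0.66 (SE 0.124, limma adjusted p = 0.242) and 2 copies of the core in its window. Mx2, which encodes an interferon-induced dynamin-like GTPase and is annotated as a polymorphic pseudogene, had 14.6, 7.28, 13.4 and 7.07 FPKM in mCherry libraries, against 16.4, 16.8, 26.5 and 24.8 FPKM in GFP libraries. Its mCherry replicates differed widely and its GFP replicates were close (difference -1.0, SE 0.281, limma adjusted p = 0.322). Apol9b, an interferon-responsive apolipoprotein L gene with a near-identical neighbour that makes its level uncertain, had 3.17, 2.33, 4.27 and 4.21 FPKM in mCherry libraries and 5.65, 5.96, 7.52 and 7.71 FPKM in GFP libraries.

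Summed interferon-stimulated FPKM was 1850, 1610, 2170 and 2290 in mCherry libraries and 2200, 2260, 3210 and 2690 in GFP libraries. Sums overlapped across vectors but not within them. The list depended on single libraries: its median was -0.46 without YAP mCherry replicate 1 and -0.165 without YAP mCherry replicate 2. The count of members lower at an unadjusted p under 0.05 rose without the first of these and fell without the second. It also fell without EV mCherry replicate 2, EV GFP replicate 2 or YAP GFP replicate 2. Summed macrophage markers differed in the opposite direction in the same libraries, at 409 to 492 FPKM with mCherry and 201 to 371 FPKM with GFP, and their part in this result was not tested. Antigen presentation genes, many of which also answer interferon, had 3 of 17 members lower and 1 higher at an unadjusted p under 0.05. Over all tested genes, 4.59% were lower and 5.98% higher.

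Macrophage markers were matched to promoters in the same way, for the PU.1 core GAGGAAGT or its reverse complement ACTTCCTC, and 15 of 20 had a window. The core was found in 4 of these 15 (26.7%) and in 3.69% of all genes with a window. This share, too, describes the list and does not bear on the reporter difference. C1qc, the partner chain of C1qa, holds 1 copy and is shown with the core in capitals. C1qc had 26.9, 28.6, 49.2 and 52.4 FPKM in mCherry libraries and 15.8, 24.6, 33.8 and 43.7 FPKM in GFP libraries.
C1qc promoter, chr4:136892865-136893164, minus strand: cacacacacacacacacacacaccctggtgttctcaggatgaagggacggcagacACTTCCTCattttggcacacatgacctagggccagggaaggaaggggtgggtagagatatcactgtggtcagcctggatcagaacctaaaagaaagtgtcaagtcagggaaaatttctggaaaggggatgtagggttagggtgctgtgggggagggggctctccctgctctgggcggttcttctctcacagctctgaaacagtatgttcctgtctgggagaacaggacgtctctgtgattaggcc

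**Figure D3:**
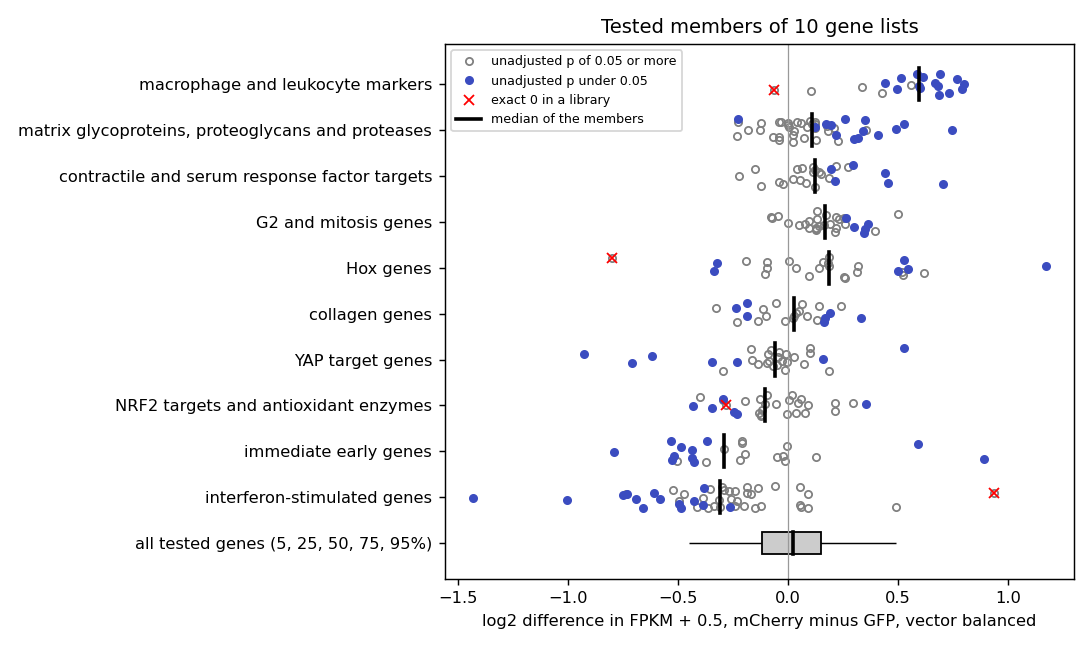
Each point is the log2 difference (mCherry minus GFP, vector balanced) of 1 tested list member; filled points have an unadjusted p under 0.05, crosses hold an exact 0 and thick bars are list medians. The macrophage list centres at 0.60 and the interferon-stimulated list at -0.31, while the box of all tested genes spans -0.12 to 0.15 (quartiles) with whiskers at -0.45 and 0.49.

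Genes that answer growth factors were mostly lower in mCherry libraries, though none passed the adjusted threshold. Of 23 immediate early genes, 9 were lower and 2 higher at an unadjusted p under 0.05, against 4.59% lower and 5.98% higher over all tested genes. The list's median was -0.29. It was -0.02 within YAP and -0.41 within EV. Egr1, a zinc finger factor, had 322, 311, 253 and 259 FPKM in mCherry libraries, against 404, 447, 439 and 356 FPKM in GFP libraries. Ier3, a stress-induced survival factor, had 29.4, 35, 25 and 24.5 FPKM in mCherry libraries, against 42.9, 45.3, 36.1 and 38.6 FPKM in GFP libraries. Neither gene overlapped between reporters, with differences of -0.53 (SE 0.0863, limma adjusted p = 0.186) and -0.52 (SE 0.0782, limma adjusted p = 0.138).

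Klf6, a Krüppel-like zinc finger factor, had 44.4, 42.9, 33.5 and 31.7 FPKM in mCherry libraries, against 55.5, 53.6, 50.7 and 44.1 FPKM in GFP libraries. Nr4a1, an orphan nuclear receptor of the immediate early set, went the opposite way with 69.6, 91.0, 67.1 and 61.1 FPKM in mCherry libraries, against 28.3, 40.8, 53.3 and 35 FPKM in GFP libraries (difference 0.89, SE 0.212, limma adjusted p = 0.28). Klf4 was the other member with an estimate above 0 and an unadjusted p under 0.05. The members at that threshold thus had both directions. The number of members lower at an unadjusted p under 0.05 moved with the library left out and was smallest without YAP mCherry replicate 1. Of 18 members with a promoter window, 2 (11.1%) held the CArG box (CC, a run of A or T, GG). Among all genes with a window, 1.81% held it, and these shares do not bear on the reporter difference.

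Epiregulin and HB-EGF, both ligands of the EGF receptor, had lower values in mCherry libraries. Ereg, the epiregulin gene, had 6.73, 5.39, 5.78 and 5.0 FPKM in mCherry libraries, against 16.8, 17.1, 10.5 and 10.2 FPKM in GFP libraries. The mCherry libraries were alike in both vectors, whereas GFP libraries were higher in YAP than in EV. The difference was -1.15 (SE 0.137, limma adjusted p = 0.0564), and within YAP it was -1.42 and passed (limma adjusted p = 0.0267). Hbegf had 12.2, 12.4, 11.5 and 10.2 FPKM in mCherry libraries, against 16.4, 18.9, 17.1 and 18.5 FPKM in GFP libraries, without overlap (difference -0.60, SE 0.0876, limma adjusted p = 0.138).

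Of 45 tested matrix glycoprotein, proteoglycan and protease genes, 13 were higher and 1, Timp3, was lower at an unadjusted p under 0.05, against 5.98% higher and 4.59% lower over all tested genes. The list's median was 0.11. Tnc, an adhesion-modulating matrix protein, had 160, 150, 191 and 201 FPKM in mCherry libraries, against 107, 108, 161 and 160 FPKM in GFP libraries. Vcan, a large hyaluronan-binding proteoglycan, had 94.7, 80.4, 81.8 and 91.0 FPKM in mCherry libraries, against 67.7, 66.5, 71.4 and 68.2 FPKM in GFP libraries. Vcan did not overlap between reporters, whereas Tnc separated within each vector only, and their limma adjusted p-values were 0.254 and 0.186. The authors' deposited table gives Vcan 150 FPKM for the pooled YAP libraries and 138 FPKM for the pooled EV libraries, above every library. The count of higher members was smaller without EV mCherry replicate 2. It was 5 without a vector term, where the difference between the vectors adds to the error.

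Igfbp3, which binds and carries insulin-like growth factors, had 34.0, 32.7, 61.5 and 71.2 FPKM in mCherry libraries, against 23.2, 22.8, 46.1 and 45.4 FPKM in GFP libraries. The difference of 0.53 (SE 0.0666, limma adjusted p = 0.0729) was 0.53 within YAP and 0.53 within EV. Postn and Dcn, a matricellular protein and a small proteoglycan, had differences of 0.35 (SE 0.0818) and 0.49 (SE 0.131). The macrophage sums given above were also higher in mCherry libraries, and their part in the matrix values was not tested.

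Collagens split. Of 23 tested, 4 were higher and 3 lower at an unadjusted p under 0.05, where all tested genes had 5.98% and 4.59%, and the median was 0.03. Col12a1, a fibril-associated collagen, had 308, 308, 287 and 317 FPKM in mCherry libraries, against 226, 231, 269 and 247 FPKM in GFP libraries. Col3a1, a major fibrillar collagen, had 1166, 1179, 1587 and 1508 FPKM in mCherry libraries, against 1403, 1532, 1780 and 1652 FPKM in GFP libraries. The adjusted p-values in limma were 0.245 and 0.309. All 3 tested chains of collagen VI were among the 4 higher, Col6a1 at 0.16, Col6a2 at 0.19 and Col6a3 at 0.17, with Col12a1 the fourth.

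Among fibroblast markers 3 of 19 were higher and 2 lower at an unadjusted p under 0.05 (5.98% and 4.59% of all tested genes), with a median of 0.10. Thy1, the CD90 antigen, had 258, 299, 288 and 306 FPKM in mCherry libraries, against 158, 163, 253 and 217 FPKM in GFP libraries. Of 25 genes of the contractile apparatus and targets of serum response factor, 6 were higher and 0 lower at that threshold, with a median of 0.12, 0.20 within YAP and 0.03 within EV. Within YAP 11 were higher, against 7.12% of all tested genes, and within EV 2, against 4.67%. Without a vector term, where the difference between the vectors adds to the error, 1 was higher. The count over both vectors also moved with the library left out. Cnn1, an actin-binding calponin of smooth muscle, had 25.8, 28.6, 45.1 and 44.5 FPKM in mCherry libraries, against 16.1, 15.6, 37.1 and 45.5 FPKM in GFP libraries. Its EV libraries overlapped and its YAP libraries did not.

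Proliferation genes had small differences. Of 30 G2 and mitosis genes, 5 were higher and 0 lower at an unadjusted p under 0.05, against 5.98% and 4.59% of all tested genes. The median was 0.17, and the count of higher members moved with the library left out. Mki67, the Ki-67 antigen of cycling cells, had 21.5, 20.8, 23.7 and 22.5 FPKM in mCherry libraries, against 19.8, 17.3, 18.7 and 17.6 FPKM in GFP libraries. The groups did not overlap, and the difference of 0.26 (SE 0.0759) had a limma adjusted p of 0.338. Cdc20, an activator of the anaphase-promoting complex, had a difference of 0.35 (SE 0.113). Against the same shares of all genes, S phase genes had 3 members higher and 1 lower of 24, and replication-dependent histone genes had 3 higher and 0 lower of 6.

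Hox genes, which record the body level that fibroblasts came from, had 4 members higher and 2 lower of 26 at an unadjusted p under 0.05, against 5.98% higher and 4.59% lower over all tested genes. The 4 were Hoxb7, Hoxb8, Hoxb9 and Hoxa13, and the 2 were Hoxa10 and Hoxd13. Hoxb8 had 6.62, 9.17, 5.97 and 8.24 FPKM in mCherry libraries, against 2.03, 2.13, 5.01 and 3.62 FPKM in GFP libraries. Hoxb9, its neighbour on chromosome 11, had 12.8, 13.4, 9.87 and 10.5 FPKM in mCherry libraries, against 8.46, 6.92, 8.70 and 7.43 FPKM in GFP libraries. Neither gene overlapped, with differences of 1.17 (SE 0.251, limma adjusted p = 0.247) and 0.53 (SE 0.121, limma adjusted p = 0.28).

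Stress and metabolic lists were counted at an unadjusted p under 0.05, which 5.98% of all tested genes passed as higher and 4.59% as lower. NRF2 targets and antioxidant enzymes had 1 higher and 5 lower of 29, with Hmox1, the haem-degrading oxygenase, at -0.43 (SE 0.128) and Sod1, the cytosolic superoxide dismutase, at -0.23 (SE 0.0688). NF-kappaB targets and chemokines had 4 higher and 4 lower of 27: Ptgs2, the inducible cyclooxygenase, stood at -0.48 (SE 0.125) and Cxcl1 at -0.46 (SE 0.116), but Cxcl16 at 0.57 (SE 0.161). Glycolysis and hypoxia genes had 0 higher and 4 lower of 28, proteasome subunits 0 and 4 of 31, and heat shock genes 0 and 3 of 23. Lysosome genes had 5 higher and 1 lower of 29, imprinted genes 5 and 1 of 18, ribosomal proteins 7 and 2 of 56, and respiratory chain subunits 5 and 1 of 51, where Atp5o is 1 of the 5. Integrated stress response genes had 4 higher and 0 lower of 31, chaperones of the endoplasmic reticulum 3 and 0 of 24, cholesterol synthesis genes 1 and 0 of 22 and p53 targets 0 and 1 of 26.

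Some of these lists had larger counts within 1 vector. Of 31 integrated stress response genes, 13 were higher within YAP and 0 within EV, beside 7.12% and 4.67% of all tested genes at an unadjusted p under 0.05. Of 31 proteasome subunits, 1 was lower within YAP and 9 within EV, and of 28 glycolysis and hypoxia genes 1 and 8, beside 5.09% and 4.9% of all tested genes. Immediate early genes had 5 lower within YAP and 12 within EV, and 3 higher within YAP and 0 within EV. Whether these lists differ between the vectors was not tested.

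Lists of markers of further cell types had few tested members, and all tested genes stood at 5.98% higher and 4.59% lower. Endothelial (3 tested), skeletal muscle (4 tested) and sex-linked genes (5 tested) had no member at an unadjusted p under 0.05. Epithelial and mesothelial markers had 0 higher and 2 lower of 7, adipocyte markers 2 and 0 of 7, chondrocyte and bone markers 1 and 0 of 9, and neural and glial markers 0 and 2 of 5. Ngfr, a neurotrophin receptor of neural crest cells and some fibroblasts, had 0.302, 0.266, 1.15 and 1.07 FPKM in mCherry libraries, against 1.22, 1.18, 5.0 and 4.09 FPKM in GFP libraries. It was lower in mCherry within each vector (difference -1.38, SE 0.207, limma adjusted p = 0.138). All 15 mitochondrially encoded genes and 9 of 10 erythroid genes are listed at 0 in every library, so neither list could be tested and their zeros can be failed estimates. Of 11 tested small and structural RNAs 0 were higher and 1, Malat1, was lower.

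YAP target genes had estimates in both directions, and none passed the adjusted threshold. Of 28 tested, 2 were higher and 5 lower at an unadjusted p under 0.05, beside 5.98% and 4.59% of all tested genes. The median was -0.06. Without a vector term the counts were 0 and 0, but the YAP minus EV difference of these genes then adds to the error. Amotl2, a Hippo pathway scaffold that YAP induces, had 180, 200, 83.7 and 71.6 FPKM in mCherry libraries, against 505, 546, 111 and 92.9 FPKM in GFP libraries. Edn1, the vasoconstrictor peptide endothelin, had 2.52, 2.32, 0.349 and 0.568 FPKM in mCherry libraries, against 5.21, 4.41, 1.03 and 0.792 FPKM in GFP libraries. Tead4, a DNA-binding partner of YAP, had 5.63, 6.15, 2.77 and 2.10 FPKM in mCherry libraries, against 8.47, 11.5, 4.56 and 3.04 FPKM in GFP libraries. For all 3, both mCherry libraries lay below both GFP libraries in each vector. The differences were -0.93 for Amotl2, -0.71 for Edn1 and -0.62 for Tead4, with limma adjusted p-values of 0.28, 0.301 and 0.309.

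Cyr61, a matricellular protein and classic YAP target, had 741, 872, 407 and 437 FPKM in mCherry libraries, against 894, 931, 514 and 509 FPKM in GFP libraries (difference -0.23, SE 0.0677, limma adjusted p = 0.339). Nuak2, a kinase, was the fifth of the lower members at -0.34 (SE 0.128), and the higher members were Igfbp3 and Asap1. Ctgf and Ankrd1, also classic targets, overlapped between reporters: Ctgf had 108, 129, 68.7 and 58.7 FPKM in mCherry libraries and 125, 116, 60.3 and 73.3 FPKM in GFP libraries. Ankrd1 had 10.7, 8.69, 5.43 and 3.78 FPKM in mCherry libraries and 10.5, 8.61, 3.73 and 4.17 FPKM in GFP libraries. The YAP minus EV comparison uses the same 8 libraries, so its values stand only beside these: it was 1.83 for Amotl2, 1.76 for Edn1, 1.21 for Tead4, 0.88 for Cyr61, 0.87 for Ctgf and 1.09 for Ankrd1.

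The reporters were also compared within each vector. Across the 12651 genes with no exact 0, the differences within YAP and within EV had a Pearson correlation of 0.0591 and the same sign in 52.7% of genes, a description over genes that are not independent. Within YAP, 28 genes (0.211%) were called in limma and 11 of them (0.0829%) held no exact 0. Within EV, 20 (0.151%) were called and 7 of them (0.0527%) held no exact 0. Both vectors' libraries separated by reporter in the same direction for 829 genes (6.24%) higher and 624 (4.7%) lower in mCherry, and in opposite directions for 1059 (7.98%). The interaction itself was called for 9 genes (0.0678%), of which 2 (0.0151%) held no exact 0, with 1302 (9.81%) at an unadjusted p under 0.05. Without 1 library, the count with no exact 0 was 2 (without EV mCherry replicate 2) to 14 (without YAP mCherry replicate 1), and it was at least 4 without any of the other 6.

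**Figure D4:**
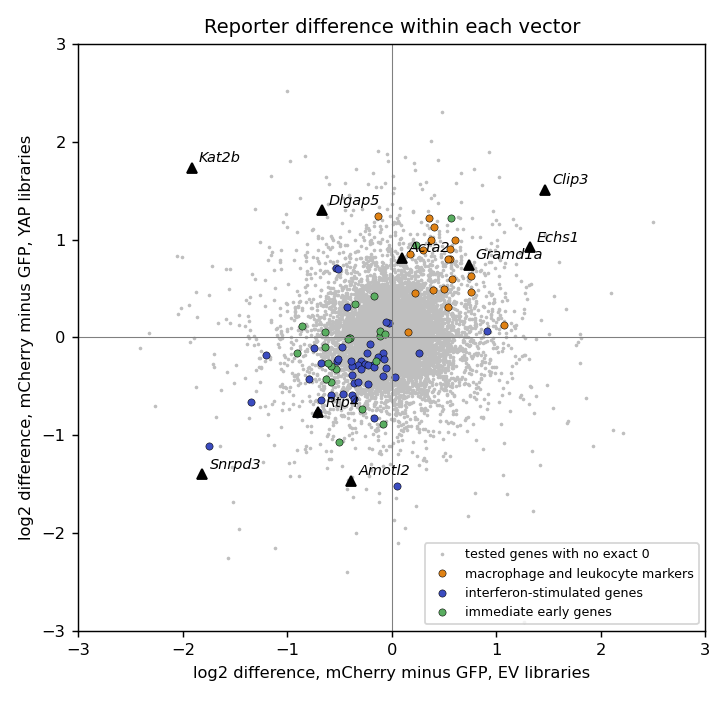
Each grey point is 1 of 12651 genes with no exact 0, with its log2 mCherry minus GFP difference in EV libraries on the x axis and in YAP libraries on the y axis; coloured points are list members and triangles are named genes. Clip3, Echs1 and Gramd1a lie in the upper right and Snrpd3 and Rtp4 in the lower left, while Kat2b and Dlgap5 lie in the upper left, where the reporters differ in opposite directions.

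Kat2b, a histone acetyltransferase also called PCAF, had the largest interaction among genes with no exact 0 that passed. It had 28.7 and 26.0 FPKM in YAP mCherry libraries, against 8.44 and 7.28 FPKM in YAP GFP libraries. It had 7.32 and 7.36 FPKM in EV mCherry libraries, against 27.6 and 30.6 FPKM in EV GFP libraries. The high arms and the low arms thus crossed, with a difference of 1.74 within YAP, -1.92 within EV and an interaction of 3.65 (SE 0.165, limma adjusted p = 0.00215). The authors' deposited table gives 29.4 FPKM for the pooled YAP libraries and 28.1 FPKM for the pooled EV libraries, near the high arms of each. Kat2b (ENSMUSG00000000708) lies on the plus strand at chr17:53566861-53672720.

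Dlgap5, a spindle protein of mitosis, had 29.2 and 31.8 FPKM in YAP mCherry libraries, against 12.4 and 11.8 FPKM in YAP GFP libraries. It had 19.3 and 19.2 FPKM in EV mCherry libraries, against 31.1 and 30.9 FPKM in EV GFP libraries. The interaction was 1.97 (SE 0.124, limma adjusted p = 0.00951), and 0.0616 without EV mCherry replicate 2. Dlgap5 was not among the 30 mitosis genes described above. Dlgap5 (ENSMUSG00000037544) lies on the minus strand at chr14:47387779-47418407.

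Acta2 and Amotl2 showed a reporter difference within YAP that was not seen at that size within EV, although their interactions missed the adjusted threshold. Acta2, smooth muscle actin, had 843 and 819 FPKM in YAP mCherry libraries, against 470 and 476 FPKM in YAP GFP libraries. It had 955 and 975 FPKM in EV mCherry libraries, against 904 and 903 FPKM in EV GFP libraries. The YAP GFP arm alone stood low, with a difference of 0.81 within YAP (limma adjusted p = 0.00483), 0.09 within EV and an interaction of 0.72 (SE 0.0771, limma adjusted p = 0.0831). For Amotl2 the YAP GFP arm stood highest, the YAP mCherry arm also lay above all EV libraries, and the difference was -1.47 within YAP (limma adjusted p = 0.0163), -0.39 within EV, with an interaction of -1.08 (SE 0.178, limma adjusted p = 0.233).

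**Figure D5:**
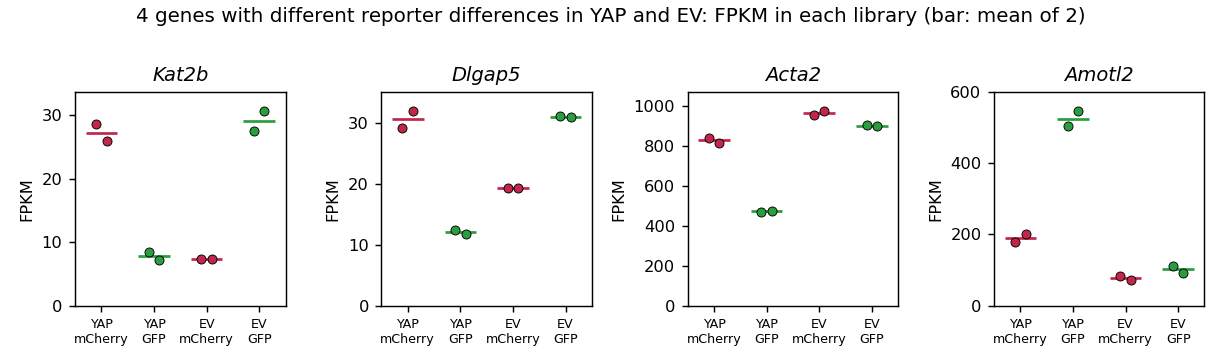
Each panel plots FPKM (linear axis from 0) of 1 gene by arm, with points for the 2 libraries and a bar for their mean. Kat2b is at 26.0 to 30.6 FPKM in YAP mCherry and EV GFP libraries and at 7.28 to 8.44 FPKM in the other arms, while Acta2 is low in YAP GFP libraries alone.

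The other genes called within 1 vector, which were chosen after their values were seen, mostly had 1 arm apart from the rest. Enpp2, the lysophosphatidic acid producer autotaxin, had 32.5 and 26.5 FPKM in YAP mCherry libraries, against 72.2 and 68.9 FPKM in YAP GFP libraries, while EV libraries held 36.4 and 40.1 FPKM with mCherry and 31.2 and 30.8 FPKM with GFP. Hspd1, the mitochondrial chaperonin, had 87.9 and 94.4 FPKM in YAP mCherry libraries, against 34.0 and 31.9 FPKM in YAP GFP libraries, while EV libraries held 75.5 and 83.7 FPKM with mCherry and 91.3 and 122 FPKM with GFP. In both the YAP GFP arm stood apart, as it did for Plp2 (0.69 within YAP) and the tankyrase Tnks2 (-1.17). Plp2 also did not overlap between reporters over both vectors. It had 65.5, 65.6, 70.5 and 71.2 FPKM in mCherry libraries, against 40.7, 40.4, 61.5 and 63.6 FPKM in GFP libraries.

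Within EV, the EV GFP or the EV mCherry arm stood apart instead. Rpl28, a ribosomal protein, had 201 and 263 FPKM in EV mCherry libraries, against 65.6 and 67.9 FPKM in EV GFP libraries, while all 4 YAP libraries lay between 219 and 252 FPKM. Uchl1, a neuronal ubiquitin hydrolase, had 7.69 and 6.03 FPKM in EV mCherry libraries, against 28.7 and 23.8 FPKM in EV GFP libraries, while YAP libraries held 6.35 to 8.67 FPKM. For Rpl28 the authors' deposited table gives 18.6 FPKM for the pooled YAP libraries and 18.8 FPKM for the pooled EV libraries, below every library. Ric8a was high in the EV mCherry arm (1.80 within EV), and Tnip1 and Dnm1 in the EV GFP arm (-1.93 and -0.73). For Ric8a the authors' deposited table gives 74.3 FPKM pooled over YAP, above every YAP library, and 77.4 FPKM pooled over EV libraries. Its pooled YAP and EV values lie above every library of their vector for Amotl2, at 597 and 224 FPKM, and for Col3a1, at 3220 and 4280 FPKM. The same holds for Vcan, Slit3, Mki67, Col12a1, Igdcc4, Ptprv, Ptgs2, Tnks2, Dnm1, Asap1 and Cyr61. For Plp2, inside the locus of Prickle3, they lie below every library, at 24.9 and 32.1 FPKM. None of the genes named here and above as called within 1 vector, other than Kat2b and Dlgap5, had an interaction past the adjusted threshold in limma, where adjusted p-values ran from 0.0831 for Rpl28, Enpp2 and Acta2 to 0.53 for Echs1.

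Further genes without overlap between reporters, taken in order of p, all missed the adjusted threshold. Higher in mCherry by estimate were Nfyb, a subunit of the CCAAT-binding factor NF-Y, at 0.91 (SE 0.122), the glycosyltransferase Galnt18 at 0.62 (SE 0.0929), Ptprv at 0.52 (SE 0.0797), the guidance ligand Slit3 at 0.48 (SE 0.0825), Sys1 at 0.47 (SE 0.0718) and Igdcc4 at 0.45 (SE 0.0782). Lower by estimate were Bola2, an iron-sulphur cluster factor, at -1.91 (SE 0.3), Pter at -1.03 (SE 0.153) and the small heat shock protein Hspb8 at -0.51 (SE 0.0788). Slit3, for example, had 58.7, 57.9, 60.2 and 66.4 FPKM in mCherry libraries, against 39.7, 36.8, 52.2 and 46.3 FPKM in GFP libraries. The pseudogenes Rps23-ps1, at -0.81, and Rpsa-ps12, at 0.61, share reads with ribosomal protein genes, so their values are uncertain.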

How the data were processed

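Gene-level FPKM of 8 libraries were deposited by the authors, per the file headers. Per the submitters' processing notes, the tools include TopHat and Cufflinks and the build is mm10. Tool versions and any scaling between libraries are not given in the sources used here. The authors' deposited comparison of YAP with EV, with 1 pooled FPKM per vector, served only for gene loci and the values credited to it. Gene identifiers on more than 1 row (49 identifiers, 114 rows) were left out of 48641 rows. Coordinates are from GENCODE M21 (GRCm38, the assembly of mm10).

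Genes with a mean of at least 1 FPKM were tested on log2(FPKM + 0.5) with limma 3.58.1 in R 4.3.3 (variance trend, empirical Bayes, Benjamini-Hochberg adjustment over all 13276 genes). Terms were vector and reporter; effects within a vector and the interaction came from arm means with 1 shared spread. Genes with an exact 0 stayed in the fit and were counted apart. On simulated data with 200 of 12651 genes changed, 20.5% were called at a log2 change of 0.5, 71.5% at 1 and 92.5% at 2, with 2, 10 and 11 false calls. How often a gene is called when its reporter difference is not the same in both vectors was not tested. In these libraries 9.81% of tested genes had an interaction at an unadjusted p under 0.05 in limma. Absolute depth is unknown, so no counting interval is given. Steps in FPKM values of at most 0.1 gave relative depths of 0.555 to 1.11 against EV GFP replicate 1, which itself reads 1.01 at the bin width used, where EV GFP replicate 2 could be either bound.

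The comparison, its 36 gene lists and its tests were chosen with earlier results of these data known. The rule for named genes took 10 genes in each direction from non-overlapping genes with no exact 0 and a standard symbol. Called genes came first, by size of the difference, and then the smallest p. The rule also took the 3 smallest p of each list and 10 fixed genes. It further took the 3 smallest p for the interaction and up to 6 genes at 0 in exactly 1 reporter. Not every gene it takes is described. Not every gene called within a vector is reported here. Genes outside the rule were chosen after their values were seen. They are Csf1r, Lyz2, C1qc, Mx2, Nr4a1, Klf4, Tead4, Nuak2, Asap1 and the members named in list counts. The genes called within 1 vector and the neighbours Son and Phyhd1 were chosen so too. Tables were made with Python 3.11.15, pandas 2.3.3, numpy 2.4.6 and matplotlib 3.10.9. Alternatives covered the pseudocount, the filters, the variance model, scaling, the vector term, the replicate block, each vector alone and each library left out.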

Additional observations from a re-analysis of the deposited data

Results flagged for a closer look

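For 2 genes the reporter difference differed between the vectors by the interaction test in limma. It was 3.65 on the log2 scale for Kat2b and 1.97 for Dlgap5 (YAP minus EV). In single libraries, 157 groups of 4 were checked for the genes of the text, and a library far from the other 3 was found in 2. Chance flags about 1 in 20 groups of 4 like values. Each group here mixed 2 YAP and 2 EV libraries, and many genes were chosen for groups that do not overlap. That rate therefore need not hold, and the count of 2 does not measure how clean the libraries are. For Pter, a phosphotriesterase-related gene, EV GFP replicate 2 held 13.4 FPKM against 22.2 to 22.6 FPKM in the other GFP libraries, a gap of 0.954 of the range. For Actn1, an actin crosslinker, EV mCherry replicate 2 lay below the other mCherry libraries by 0.916 of a narrow range, with 213 FPKM against 220 FPKM. Without EV GFP replicate 2, Pter passed the adjusted threshold in limma, at 0.00644.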

How the results depend on the processing

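The replicate numbers do not pair the libraries: deviations of same-numbered libraries from their arm means correlated between -0.0316 and 0.0463 over 12651 genes. With the replicate block, 1 gene was called higher and 1 lower in mCherry, against 3 and 2 without it. Fitted on YAP libraries alone the counts were 0 and 0, and on EV libraries alone 0 and 0, where fewer samples leave fewer degrees of freedom. With 1 library left out, the counts ran from 1 to 4 higher and from 0 to 3 lower, and genes called for the interaction from 2 to 14. Only 1 was higher without EV GFP replicate 2 or YAP GFP replicate 1. None was lower without EV GFP replicate 1, and 1 was lower without EV GFP replicate 2, either EV mCherry library or YAP mCherry replicate 1. In such fits the lone library of an arm is assumed to vary like the others. No interaction was fitted with the block, without the vector term or in 1 vector alone. Under the other alternatives (pseudocounts of 0.1 and 1, no filter, a mean of 5 FPKM, zeros left out, no trend, robust moderation, median ratios, quantiles, no vector term) each of these counts stayed at 2 or 3. Among the genes run under the alternatives, no difference turned its sign. Some members named in list counts, such as Col6a1, Col6a3 and Timp3, were not run. The vector-balanced differences of Kat2b, Dlgap5, Acta2, Ctgf, Ankrd1 and Yap1 were not run either. Kat2b and Dlgap5 have opposite signs in YAP and EV libraries, so the statement on signs does not cover such genes. The median over all genes moved from 0.0204 to 0.00459 with median ratios. FPKM without counts limits what can be said of low genes, exact zeros may be failed estimates, and 2 libraries per arm give a wide error on each difference.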
